A study of Mus musculus with 6 samples.

Results

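The 87 genes described here carry the symbols of nuclear-encoded subunits of the mitochondrial respiratory chain and ATP synthase, and they were picked by a symbol pattern (Nduf, Sdh, Uqcr, Cox4 to Cox8 and Atp5) among 22180 genes measured in mouse liver. Of the 87, 79 are subunits and 8 are the complex I assembly factors Ndufaf1 to Ndufaf8, whose symbols match the same pattern. By complex there were 32 subunits of complex I, 4 of complex II, 7 of complex III, 19 of complex IV and 17 of complex V. No filter on low values was applied, so every member was tested. For 10 members, 8 of complex IV and 2 of complex V, the mean log2 value lay below 3.94, the median over all genes, and they are not shown to be above background. A further 10 probe sets name a chain gene together with another gene or a pseudogene and were left out, which removed Cox6c, Ndufb2, Ndufb4, Ndufs6 and Uqcr10. The subunits encoded by mitochondrial DNA were not analysed here.

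The respiratory chain lies in the inner mitochondrial membrane. Complex I takes electrons from NADH and complex II from succinate, both pass them through ubiquinone to complex III, cytochrome c carries them to complex IV, and complex IV reduces oxygen to water. Complexes I, III and IV pump protons, and complex V, the ATP synthase, uses the proton gradient to make ATP. Hepatocytes are rich in mitochondria, and the chain oxidises the NADH and FADH2 that fatty acid oxidation supplies. Most chain subunits are encoded in the nucleus, and the transcription factors NRF1, GABP, YY1 and ERR alpha, with the coactivators PGC-1 alpha and PGC-1 beta, are known regulators of their genes.

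Each of 6 male C57BL/6J mice gave 1 liver RNA sample and 1 array. The 3 Con mice had the genotype Slug f/f: both copies of Slug, listed as Snai2 and a DNA-binding repressor of the Snail family, are flanked by lox sites. The 3 HKO mice were Slug f/f littermates that also carried albumin-CreERT2. The albumin promoter drives this tamoxifen-dependent Cre in hepatocytes, so the other cells of the liver keep the gene. The labels do not say whether Con mice carried the transgene or how Cre was induced. Both groups began a diet that drew 60% of its calories from fat when they were 8 weeks old, and ate it for 11 weeks.

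The arrays bore out the labels: Snai2 read 7.61 ± 0.19 (SD, n = 3) in Con and 5.18 ± 0.54 in HKO on the log2 scale (limma adjusted p = 0.0145). The difference was -2.36 to -2.45 in the fits that lost this call: the adjusted p was 0.0758 without Con1, 0.0927 without Con2, 0.0621 without HKO2, 0.0540 with the replicate number as a block and 0.234 with no variance shared between genes. It passed under 11 of 16 alternatives. Hepatocyte markers were present at mean log2 levels of 10.56 to 10.60 in Con and 10.58 to 10.75 in HKO. Of 8 such markers, 0 passed adjusted p 0.05. The skeletal muscle markers Acta1, Ckm, Mylpf, Myh4, Tnnt3 and Atp2a1 had mean levels of 1.99 to 3.87 in both groups, below the median over genes. One array stood apart for the chain. HKO3 gave the lowest of the 6 values for 34 of the 79 subunits (43.0%), while it did so for 25.1% of the 11090 genes at or above the median level. Some of the members that HKO3 moved are therefore also given without it.

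Some subunit promoters held sequence motifs, which the symbol rule did not use, and the shares are given here with no test. RefSeq promoters (GRCm38.p6, from 250 bases before to 50 after a transcription start) were at hand for 65 of the 79 subunits, 70 promoters in all. The 10-base NRF1 motif, a palindrome that is spelled out in capitals in the Cox6a1 and Ndufa11 promoters printed here, stood in 7.14% of them and in 0.971% of all 32851 promoters. The core CCGGAAG of ETS factors such as GABP stood in 24.3% against 8.86%, all of these being read on both strands. The YY1 motif AAGATGGC stood in 12.9% against 2.75%, and the ERR alpha motif TCAAGGTCA in 2.86% against 0.423%. The E-box CAGGTG, a type of site that Snail family proteins can bind, stood in 21.4% of subunit promoters and 20.2% of all promoters. A match is a description of letters and not a shown binding site. The promoters of 3 genes are printed because between them they hold the NRF1, GABP and E-box motifs. The log2 difference of HKO from Con was 0.03 for Cox6a1 (complex IV), -0.28 for Ndufa11 (complex I) and -0.19 for Atp5e (complex V). None of the 3 passed adjusted p 0.05 in limma, and whether they differ from each other was not tested. Each printed promoter shows the 250 bases before the start on the gene's strand, with matches to the motifs in capitals.
Cox6a1 (chr5:115348959-115349208, minus strand): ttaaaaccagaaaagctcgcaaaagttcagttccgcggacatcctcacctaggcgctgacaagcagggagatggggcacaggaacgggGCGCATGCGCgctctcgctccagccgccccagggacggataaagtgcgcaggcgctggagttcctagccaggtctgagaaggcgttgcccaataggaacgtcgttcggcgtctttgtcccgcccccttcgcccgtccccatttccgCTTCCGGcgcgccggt
Ndufa11 (chr17:56717512-56717761, plus strand): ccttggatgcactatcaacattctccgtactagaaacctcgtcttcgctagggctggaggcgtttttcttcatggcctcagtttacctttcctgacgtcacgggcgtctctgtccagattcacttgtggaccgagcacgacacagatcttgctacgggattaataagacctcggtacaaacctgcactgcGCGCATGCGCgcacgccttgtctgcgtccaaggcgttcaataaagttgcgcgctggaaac
Atp5e (chr2:174464102-174464351, minus strand): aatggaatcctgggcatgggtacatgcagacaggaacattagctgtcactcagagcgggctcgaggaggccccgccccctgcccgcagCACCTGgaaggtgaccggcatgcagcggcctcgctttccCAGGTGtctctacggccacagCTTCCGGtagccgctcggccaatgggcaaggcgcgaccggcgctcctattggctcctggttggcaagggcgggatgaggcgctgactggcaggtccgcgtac
The NRF1 match begins 162 bases before the start in Cox6a1 and 60 before it in Ndufa11. In Atp5e the E-boxes begin 162 and 123 bases before the start and the GABP match 102 before it.

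Transcripts of the chain stood close to their Con levels in HKO liver. None of the 87 members passed adjusted p 0.05 in limma (0 of 87), where 45 of 22180 genes did (0.203%). At an unadjusted p under 0.05, 1 member was higher in HKO (5.31% of all genes were) and 2 were lower (6.56% of all genes). The 3 HKO values lay above all Con values for 5 members (8.05% of all genes) and below them for 6 (10.1%). Most subunits are well expressed, and among the 69 subunits at or above the median level 0 were higher and 2 lower at an unadjusted p under 0.05, against 5.83% and 9.6% of all genes at that level, of which 0.37% passed adjusted p 0.05. Of those 69, 3 had HKO values above and 5 below all Con values, against 9.32% and 15.3%. The members' shares were thus near or below those of all genes. In bulk liver, fewer cells of a type and less RNA per cell cannot be told apart in any of these values.

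The size of the differences was small. The median log2 difference (HKO minus Con) over the 79 subunits was -0.02, with a range from -0.33 to 0.62, and over all genes it was -0.01. For 74 of the 79 the difference lay within 0.25 of 0 in either direction (93.7%, against 80.2% of all genes). The arrays bound larger changes for most of the 69 subunits at or above the median level. The 95% interval of the difference lay wholly between -0.5 and 0.5 for 63 of these 69 and between -1 and 1 for 69 of 69. Over all 79 subunits the counts were 69 and 78. The 79 include the 10 below the median level, for which a narrow interval bounds no transcript change. These intervals are per gene and unadjusted. Subunits at or above the median level also varied little within groups, with a median SD of 0.09 on the log2 scale, where genes at that level had 0.13.

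**Figure D1:**
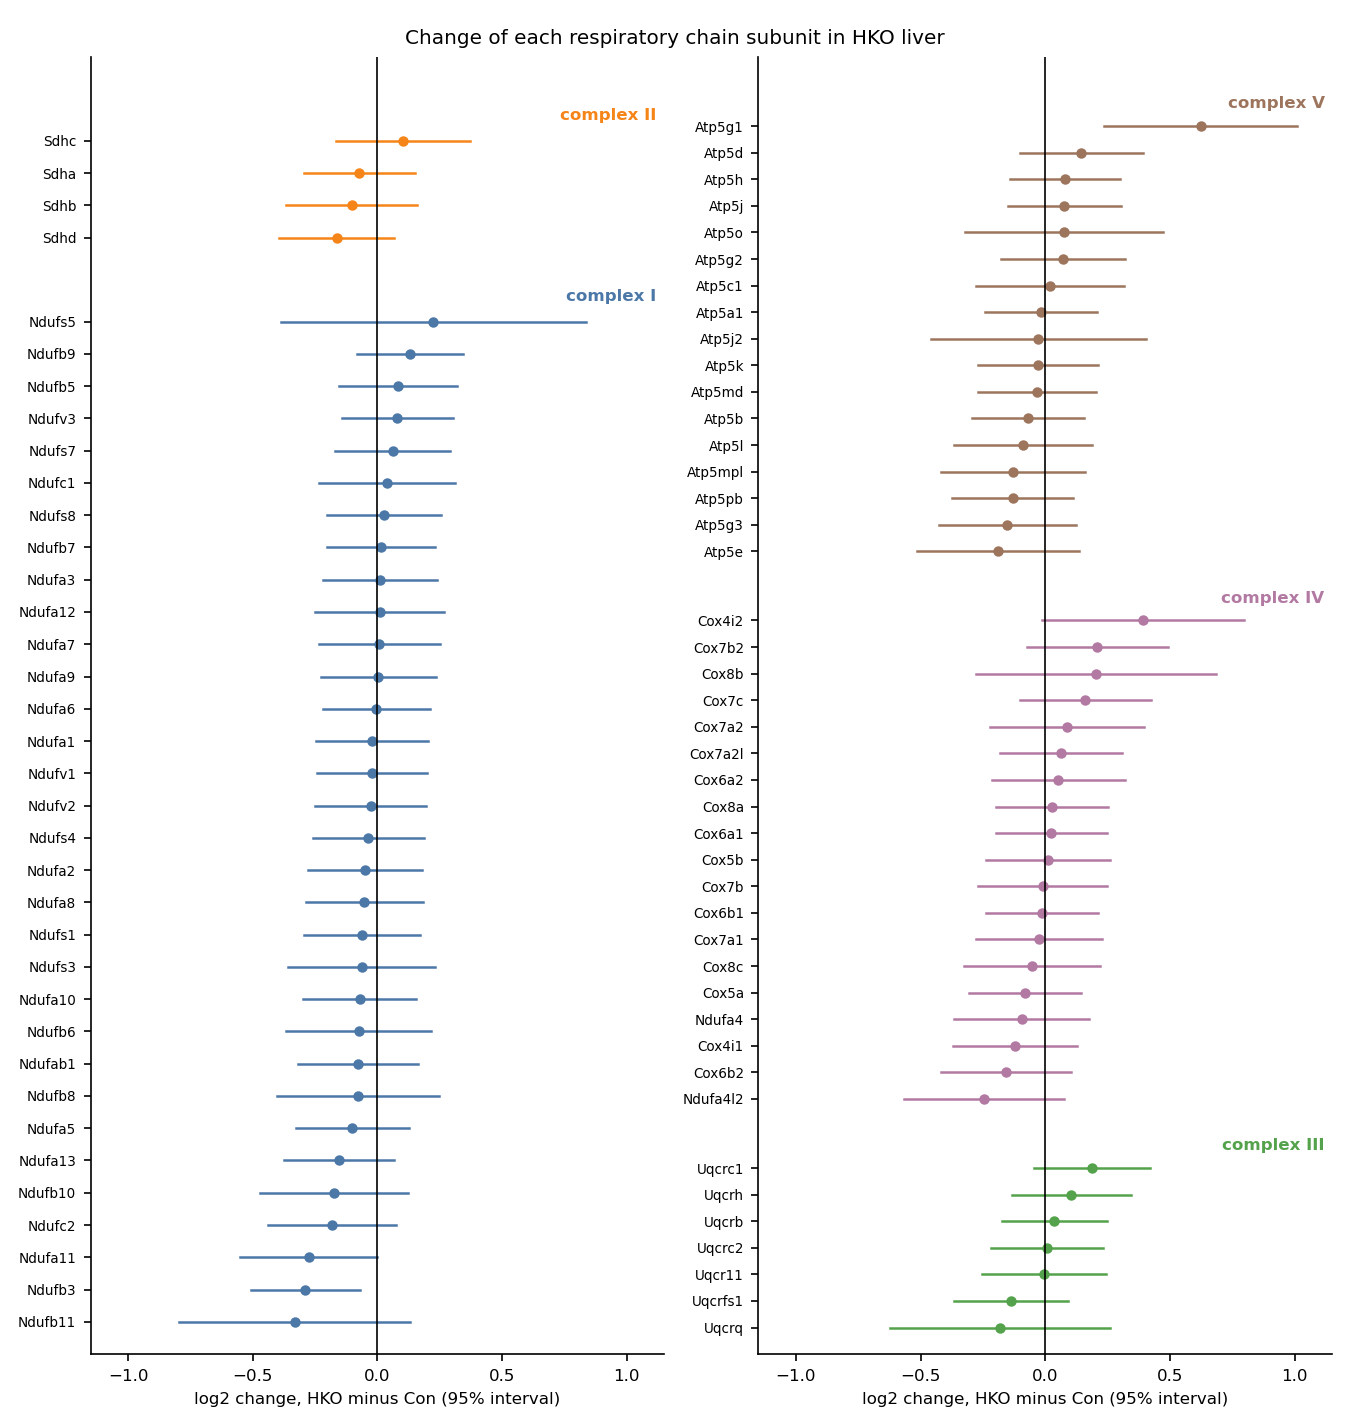
Log2 difference (HKO minus Con, x axis) of each of the 79 subunits (y axis), grouped by complex and ordered by size, with points for the estimate and lines for limma's 95% interval. Nearly all points sit within 0.25 of 0, and the points farthest out are Ndufb11 (-0.33) and the dim Atp5g1 (0.62) and Cox4i2 (0.39).

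Complex I, which oxidises NADH, had a median difference of -0.03 over its 32 subunits, 12 above 0 and 20 below. At an unadjusted p under 0.05, 0 of them were higher and 2 lower. Ndufb3, an accessory subunit of the membrane arm, read 6.12, 6.16 and 6.09 in Con1 to Con3 and 5.77, 5.85 and 5.88 in HKO1 to HKO3. All HKO values lay below all Con values by more than the spread within either group. The difference was -0.29 ± 0.09 (SE), or 1.22-fold lower, and it did not pass over all genes (adjusted p = 0.300). Ndufa11, also of the membrane arm, read 7.66, 7.40 and 7.59 in Con and 7.19, 7.19 and 7.44 in HKO. HKO3 overlapped Con2, and the difference of -0.28 ± 0.12 had an adjusted p of 0.419. Its second, dim probe set (mean 4.22) stood at -0.29. Ndufb11, likewise an accessory subunit, read 4.58, 4.90 and 4.13 in Con and 4.19, 3.99 and 4.44 in HKO. The groups overlapped, and its difference of -0.33 ± 0.20 was within the spread (adjusted p = 0.580).

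The core subunits of complex I carry out its electron transfer. Ndufv1, the flavin-bearing subunit that binds NADH, stood at -0.02, Ndufv2 at -0.03, Ndufs1 at -0.06, Ndufs3 at -0.06, Ndufs7 at 0.06 and Ndufs8 at 0.03. Their adjusted p ran from 0.860 to 0.954. Ndufb9, an accessory subunit, read 10.48, 10.42 and 10.49 in Con and 10.60, 10.56 and 10.63 in HKO, so the groups did not overlap although the difference was 0.13 ± 0.09 (adjusted p = 0.633). Ndufv3 (0.08) also had HKO values above all Con values, and Ndufc2 (-0.18) and Ndufa13 (-0.15) had them below. Ndufs5 varied widely, with 3.46, 4.23 and 4.42 in Con and 4.04, 4.67 and 4.07 in HKO. Its difference was 0.22 ± 0.27 (adjusted p = 0.795) and turned to -0.07 without Con1. A second probe set, which Ndufs5 shares with a pseudogene and which was left out, read 7.0 ± 0.14 (SD, n = 3) in Con and 6.87 ± 0.24 in HKO.

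Complex II, succinate dehydrogenase, links the chain to the citrate cycle and has 4 subunits, all encoded in the nucleus. Their median difference was -0.09. Sdhd, a membrane anchor, read 8.82, 8.67 and 8.78 in Con and 8.57, 8.67 and 8.54 in HKO, with HKO2 just above Con2 (difference -0.16 ± 0.10, adjusted p = 0.585). The other anchor, Sdhc, read 8.77, 8.79 and 8.62 in Con and 8.68, 8.81 and 9.00 in HKO, and its difference was 0.10 ± 0.12 (adjusted p = 0.785; 0.02 without HKO3). The flavoprotein Sdha stood at -0.07 and the iron-sulfur subunit Sdhb at -0.10. None of the 4 had groups that did not overlap.

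Complex III passes electrons from ubiquinol to cytochrome c. Its 7 subunits had a median difference of 0.01, 4 above 0 and 3 below. Uqcrc1, a core protein, read 9.10, 9.29 and 9.27 in Con and 9.41, 9.37 and 9.43 in HKO. All HKO values lay above all Con values, and the difference was 0.19 ± 0.10 (adjusted p = 0.523). Uqcrfs1, the Rieske iron-sulfur protein, read 6.13, 6.10 and 6.15 in Con and 6.10, 5.95 and 5.91 in HKO. Con2 and HKO1 were nearly equal, all HKO values were below all Con values, and the difference was -0.14 ± 0.10 (adjusted p = 0.644). Uqcrh, the hinge protein that helps cytochrome c dock, stood at 0.10, and Uqcrb at 0.04. Uqcrq had a difference of -0.18 ± 0.19 that came from 1 array. It read 5.71, 5.55 and 5.69 in Con and 5.72, 5.68 and 4.99 in HKO, and without HKO3 the difference was 0.05.

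Complex IV, cytochrome c oxidase, reduces oxygen. Its 19 genes, with Ndufa4 counted here because its protein is a subunit of complex IV, had a median difference of 0.01, and 0 of them had groups that did not overlap. Several of its subunits come in isoforms for different tissues, and values of different probe sets are not on a common scale, so each isoform is compared only with itself. The ubiquitous or liver forms were well above the median over genes. Cox4i1 read 8.26 ± 0.08 (SD, n = 3) in Con and 8.14 ± 0.12 in HKO, and Cox6a1 11.29 ± 0.07 and 11.32 ± 0.04. Cox6b1 read 8.59 ± 0.05 and 8.58 ± 0.07, Cox7a2 7.81 ± 0.01 and 7.90 ± 0.25, and Cox8a 9.44 ± 0.08 and 9.46 ± 0.05. The adjusted p of these differences ran from 0.717 to 0.971. In Cox7a2, HKO1 (8.02) and HKO2 (8.06) lay above and HKO3 (7.61) below the Con arrays, which all read between 7.80 and 7.82. Its difference was 0.09, and 0.23 without HKO3. Cox7a2l stood at 0.06 ± 0.11.

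The isoforms known from muscle, lung, testis or brown fat were dim in this liver. Cox4i2, the lung isoform tied to low oxygen, read 3.26, 3.11 and 3.75 in Con and 3.68, 3.97 and 3.66 in HKO. Con3 overlapped the HKO arrays, and the difference was 0.39 ± 0.18 (adjusted p = 0.437). Cox6a2, Cox7a1 and Cox8b, the heart and skeletal muscle forms, had Con means of 3.88, 3.66 and 2.73 and HKO means of 3.93, 3.63 and 2.94. The testis forms Cox6b2, Cox7b2 and Cox8c had Con means of 2.61, 2.24 and 2.73 and HKO means of 2.45, 2.45 and 2.68. Ndufa4 stood at -0.09, and Ndufa4l2, its hypoxia-induced relative, at -0.25 ± 0.14 from a Con mean of 3.79. The mean over 6 arrays lay below the median over genes for each of these dim isoforms, so no size is read from their differences.

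Complex V makes ATP. Its 17 subunits had a median difference of -0.03, 7 above 0 and 10 below, and 1 of them was higher and 0 lower at an unadjusted p under 0.05. Among the subunits of the catalytic head, Atp5a1 (alpha) stood at -0.02, Atp5b (beta) at -0.07, Atp5c1 (gamma) at 0.02, Atp5d (delta) at 0.14 ± 0.11 and Atp5e (epsilon) at -0.19 ± 0.14. Atp5b read 10.86, 10.88 and 10.94 in Con and 10.89, 10.85 and 10.73 in HKO, with overlapping groups. Atp5e read 7.17, 6.91 and 7.09 in Con and 7.09, 6.89 and 6.62 in HKO. The difference was -0.07 without HKO3, and the second, dim probe set of Atp5e (mean 4.12) stood at 0.03. The second probe set of Atp5d (mean 5.65) stood at 0.40 ± 0.27 and its arrays varied more, with HKO2 at 6.51 and the other arrays between 5.11 and 5.62.

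The membrane ring of complex V is built from subunit c, which 3 genes encode with the same mature protein behind different import signals. Atp5g1 was the member at an unadjusted p under 0.05 in complex V. It read 3.44, 3.41 and 2.90 in Con and 3.87, 3.69 and 4.06 in HKO, so that all HKO values lay above all Con values. The difference was 0.62 ± 0.17 (SE), with an adjusted p of 0.226 over all genes. Both group means lay below the median over genes, so Atp5g1 is not shown to be above background in either group and no size is read from its difference. Atp5g2 (8.97 to 9.02 in Con, 8.92 to 9.21 in HKO) stood at 0.07 ± 0.11 (0.15 without HKO3) and Atp5g3 (8.59 to 8.68 in Con, 8.29 to 8.65 in HKO) at -0.15 ± 0.12 (-0.05 without HKO3). Whether the 3 genes differ from each other in their response was not tested. Atp5pb, the b subunit of the stalk, read 8.80, 8.79 and 8.79 in Con and 8.77, 8.71 and 8.51 in HKO, below all Con values in each HKO array, with a difference of -0.13 ± 0.11 (adjusted p = 0.687) that was -0.05 without HKO3.

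**Figure D2:**
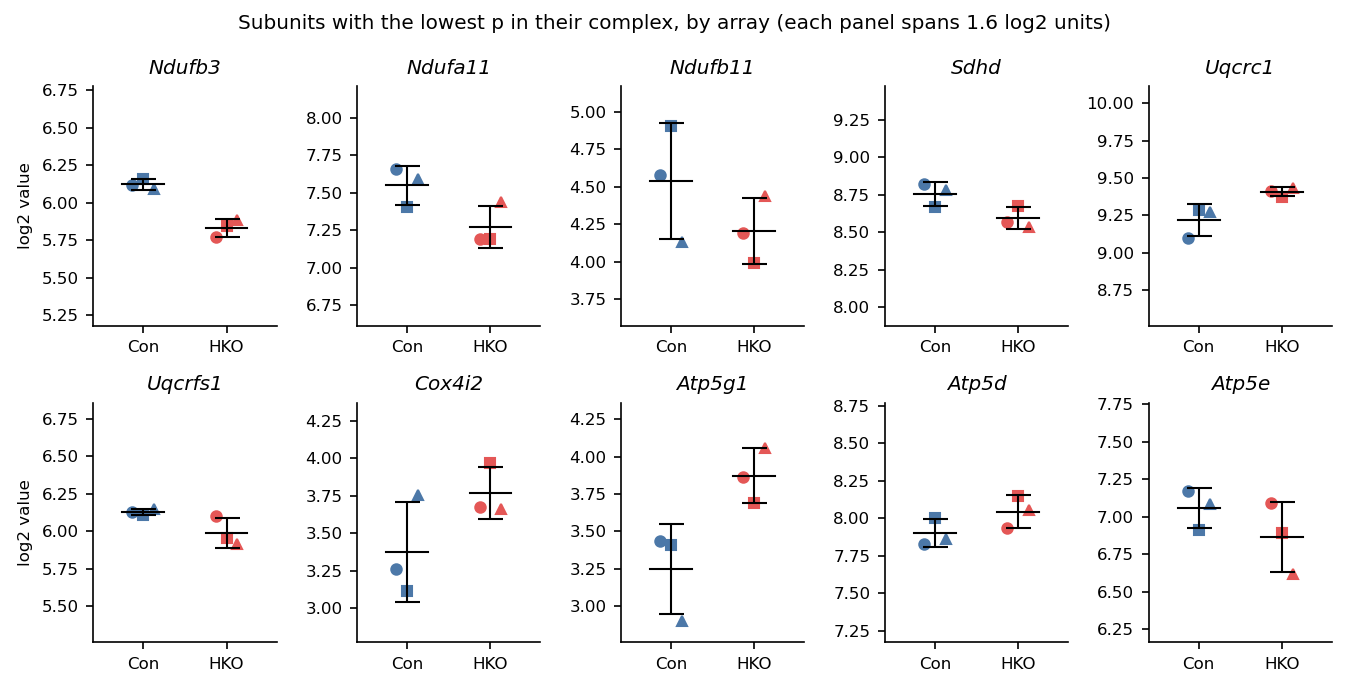
Log2 values (y axis) of 10 subunits that are among the 3 with the lowest p in their complex, by group, with circles, squares and triangles for replicates 1, 2 and 3, horizontal bars for group means and error bars for 1 SD. Ndufb3, Uqcrc1, Uqcrfs1 and Atp5g1 have groups that do not overlap, and the other panels overlap.

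HKO3 lay below the other HKO arrays in complexes I and V. Relative to the Con mean of each gene, the median complex V subunit lay at 0.05 in HKO1, 0.0015 in HKO2 and -0.13 in HKO3, and the median complex I subunit at 0.0045, -0.00079 and -0.08. The HKO3 array had the lowest of the 6 values in 11 of 17 complex V subunits (64.7%), 15 of 32 of complex I (46.9%), 3 of 7 of complex III, 4 of 19 of complex IV and 1 of 4 of complex II. In HKO3, 6 subunits lay more than 0.2 below every other array: Uqcrq, Atp5e, Atp5mpl, Atp5g3, Ndufb8 and Ndufb10. They made up 7.59% of the subunits, and 5.03% of genes at or above the median level lay as far below in HKO3. HKO2 had 2 such subunits, Con1 had 2, Con3 had 1 and the remaining arrays had 0. Without HKO3, the median difference was -0.0010 in complex I and 0.03 in complex V, where it had been -0.03 in each. Of the subunits lowest in HKO3, Ndufb10 went from -0.17 to -0.06, Ndufb8 from -0.08 to 0.06 and Atp5mpl from -0.13 to -0.02. Ndufc2 went from -0.18 to -0.11, Ndufa4 from -0.09 to -0.01 and Cox4i1 from -0.12 to -0.06, while Ndufa11 and Ndufb11 moved away from 0, to -0.36 and -0.45. The choice to look at HKO3 was made after its values were seen. Genes at or above the median level were also shifted in HKO3, with a median of -0.05 from the Con mean, and the part of array quality or of the mouse in this was not tested.

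**Figure D3:**
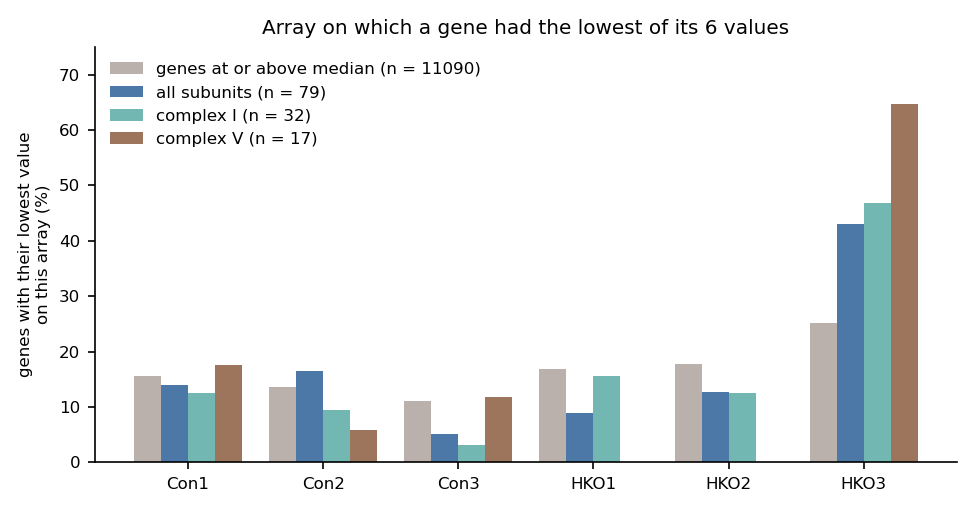
Share of genes (y axis, percent) that had the lowest of their 6 values on each array (x axis), for genes at or above the median level, all 79 subunits, complex I and complex V. The bars of HKO3 reach 43.0% for all subunits and 64.7% for complex V, above the 25.1% of genes at or above the median level.

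**Figure D4:**
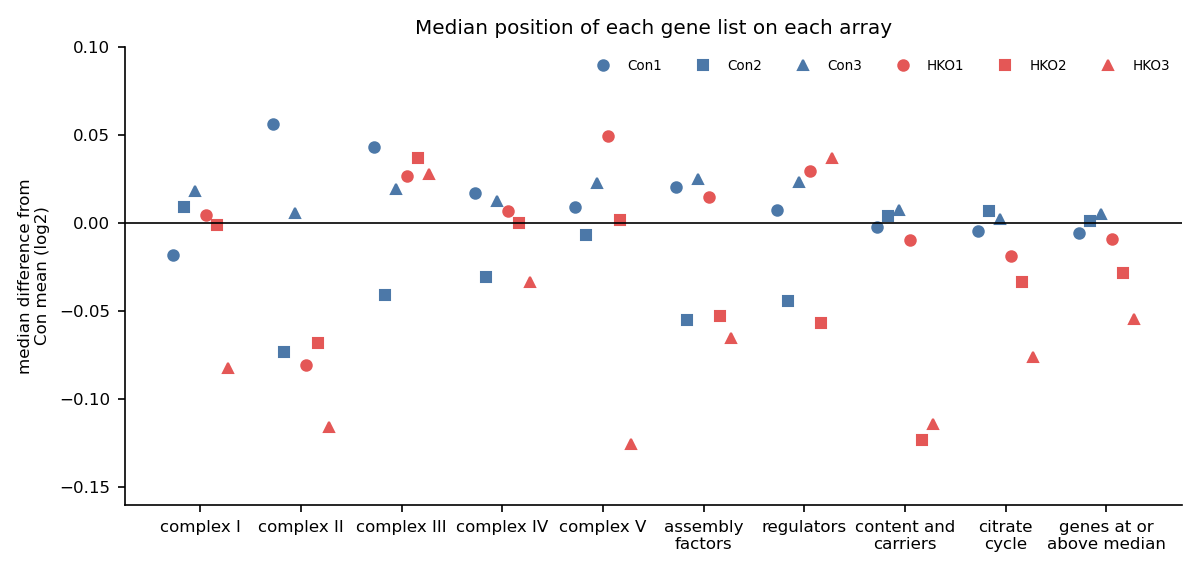
Median log2 difference from the Con mean (y axis) over the genes of each list (x axis), with 1 point per array, blue for Con and red for HKO and shapes for replicates. HKO3 lies lowest in complexes I, II, IV and V, while HKO2 (-0.12) and HKO3 (-0.11) lie together below the other arrays in the list of mitochondrial content and carriers.

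Assembly factors help to build the complexes and are not part of them. Of 45 measured for complexes I to V, including Ndufaf1 to Ndufaf8, 0 passed adjusted p 0.05, and 2 were higher (5.31% of all genes) and 0 lower (6.56%) at an unadjusted p under 0.05. With 16 above 0 and 29 below, the median was -0.05, and it was 0.0016 after a second quantile normalization. Ecsit, which takes part in complex I assembly, read 6.17, 6.30 and 6.24 in Con and 6.46, 6.49 and 6.58 in HKO (0.27 ± 0.10, adjusted p = 0.338). Cox16, a complex IV assembly factor, stood at 0.27 ± 0.11 (adjusted p = 0.378). The lowest differences were those of the complex II factors Sdhaf4 (-0.27 ± 0.17) and Sdhaf3 (-0.25 ± 0.15) and the complex IV factor Coa3 (-0.25 ± 0.12), whose groups overlapped. Among the 8 that match the symbol pattern, Ndufaf8 was above all Con values in each HKO array (0.23 ± 0.11, adjusted p = 0.489) and Ndufaf7 below them (-0.09 ± 0.09). Of the electron carriers and chain proteins that the pattern misses, Cycs, which encodes cytochrome c, read 9.79, 9.65 and 9.67 in Con and 9.52, 9.47 and 9.52 in HKO. Its values did not overlap, and the difference was -0.20 ± 0.10 (adjusted p = 0.471). Cyc1, the cytochrome c1 subunit of complex III, stood at 0.03, and Atpif1, an inhibitor of the ATP synthase, at -0.21 ± 0.14.

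Of 17 measured regulators of mitochondrial genes, 7 lay above 0 and 10 below, and 0 passed adjusted p 0.05 over all genes. At an unadjusted p under 0.05, 3 were higher (5.31% of all genes) and 0 lower (6.56%), and 4 had HKO values above all Con values (8.05%) with 0 below them (10.1%). Tfb1m, a methyltransferase of the mitochondrial ribosome's RNA, read 6.49, 6.63 and 6.55 in Con and 7.0, 6.98 and 6.97 in HKO. The gap between the groups was wider than the range within either, and the difference was 0.43 ± 0.10 (SE), or 1.35-fold higher (adjusted p = 0.155). Among the 8120 genes with a mean of at least 5 its adjusted p was 0.0285, and with a variance trend over all genes it was 0.0426. Ppargc1a, which encodes PGC-1 alpha, read 6.27, 6.45 and 6.21 in Con and 6.68, 6.48 and 6.81 in HKO (0.34 ± 0.12, adjusted p = 0.342). Ppargc1b, which encodes PGC-1 beta, read 5.36, 5.39 and 5.68 in Con and 5.94, 5.76 and 5.70 in HKO (0.33 ± 0.13, adjusted p = 0.370). Esrra, which encodes ERR alpha, was the last of the 4, at 0.19 ± 0.12. The groups of all 4 did not overlap, with Ppargc1a and Ppargc1b closest to overlap. Nrf1 stood at -0.03, Gabpa at 0.05 and Ppara, the fatty acid sensor, at -0.04. Tfam, whose protein packages mitochondrial DNA and helps start its transcription, stood at -0.14. Gabpb1, the partner of Gabpa, stood at -0.25 ± 0.16 and Mterf1a, which was dim, at -0.35 ± 0.17, both with overlapping groups. The list's median was -0.04.

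Differences of subunits were also set beside the motifs in their promoters. The median difference was 0.03 for 5 subunits with the NRF1 motif and -0.02 for the 60 without it. It was -0.01 for 17 with the GABP core and -0.02 for 48 without it, 0.0025 for 9 with the YY1 motif and -0.02 for 56 without it, and -0.16 for the 2 with the ERR alpha motif and -0.01 for 63 without it. For 14 subunits with an E-box CAGGTG it was -0.0058, and for the 51 without it -0.03. At an unadjusted p under 0.05 were 0 of the 14 and 3 of the 51. Of all genes 5.31% were higher and 6.56% lower at that threshold. The same counts were 0 of 17 and 3 of 48 for the GABP core and 0 of 9 and 3 of 56 for YY1. They were 1 of 5 and 2 of 60 for NRF1, and 0 of 2 and 3 of 63 for ERR alpha. The motif counts are small, and these medians and counts are descriptions with no test.

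Of 22 measured genes of mitochondrial content, import and carriers, 15 had an HKO mean below the Con mean and 7 above it, and of all genes at or above the median level 42.8% were above. In this list 0 passed adjusted p 0.05. At an unadjusted p under 0.05, 0 were higher and 2 lower, against 5.31% and 6.56% of all genes. Among genes at or above the median level 5.83% were higher and 9.6% lower. HKO values lay below all Con values for 7 and above them for 0, against 10.1% and 8.05% of all genes. Among genes at or above the median level these shares were 15.3% and 9.32%. The list's median difference was -0.07. Slc25a4, an ADP and ATP exchanger of the inner membrane, read 5.78, 5.89 and 5.69 in Con and 5.13, 5.45 and 5.16 in HKO. The gap between the groups was wider than the range in Con, and the difference was -0.54 ± 0.12 (SE), or 1.46-fold lower (adjusted p = 0.164; 0.0427 among genes with a mean of at least 5). Cs, citrate synthase, a common measure of mitochondrial content, read 8.93, 9.01 and 8.98 in Con and 8.68, 8.84 and 8.64 in HKO (-0.25 ± 0.10, adjusted p = 0.394). The exchanger Slc25a5 (-0.13), the import receptor Tomm20 (-0.20), the chaperone Hspa9 (-0.09), the electron transfer enzyme Etfdh (-0.08) and the dim uncoupling protein Ucp3 were the other 5 with HKO values below all Con values. Of 10 measured citrate cycle enzymes 9 were below 0 and 1 above, where 42.8% of genes at or above the median level were above. Their median was -0.06 and 0 passed adjusted p 0.05, with Idh3b at -0.00090 and Sucla2 at -0.02 among the 9. Relative to the Con mean, the median enzyme lay at -0.02 in HKO1, -0.03 in HKO2 and -0.08 in HKO3. Suclg2, a subunit of succinyl-CoA ligase, was lowest in p at -0.23 ± 0.10 (adjusted p = 0.408).

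**Figure D5:**
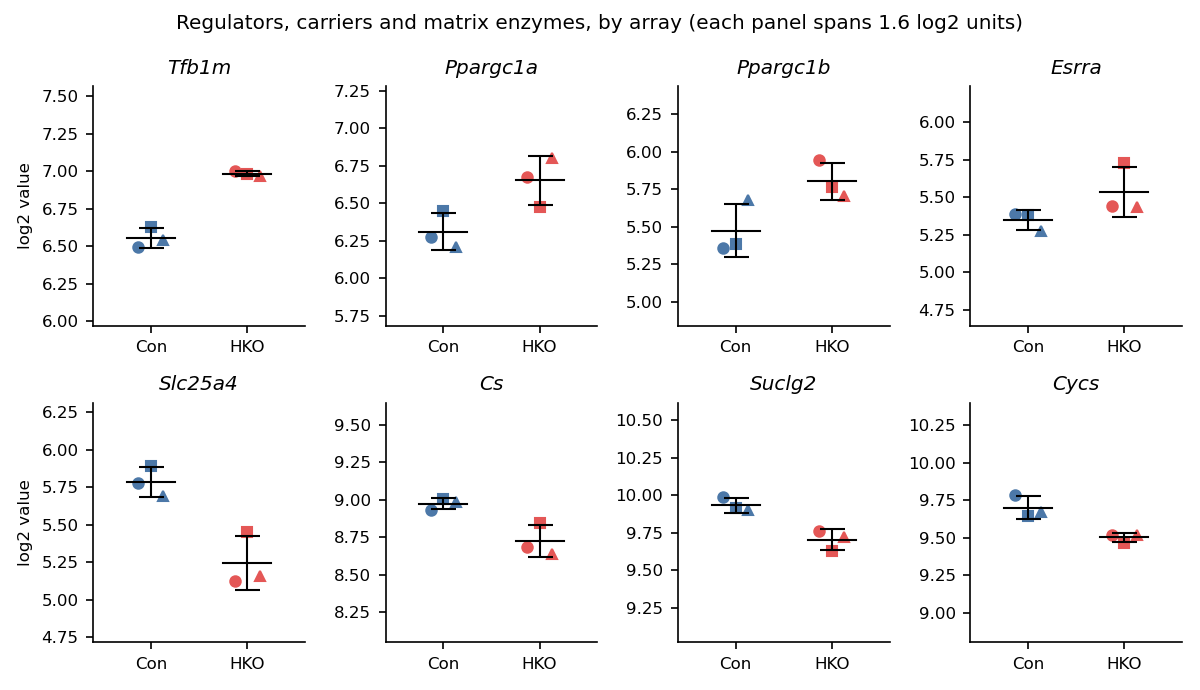
Log2 values (y axis) of 4 regulators (top row) and of 4 mitochondrial genes outside the chain's symbol pattern (bottom row) by group, with shapes for replicates, horizontal bars for means and error bars for 1 SD. In all 8 panels the groups do not overlap, with HKO higher in the top row and lower in the bottom row. No gene passed adjusted p 0.05 over all genes. The panels are a selection: of 17 regulators only these 4 had groups that did not overlap, and 10 of the 17 lay below 0. In the lists behind the bottom row, HKO values lay below all Con values for 7 of 22 content genes and 1 of 10 citrate cycle enzymes. The same held for 1 of 3 chain genes that the pattern misses.

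Some markers of other liver cells also differed between the groups. Of 7 stellate cell and fibroblast markers, 1 passed adjusted p 0.05 (Col1a2, -0.98), as 0.203% of all genes did. In this list 5 had HKO values below all Con values (10.1% of all genes), while Lrat stood at 0.03 and Reln at -0.0047. The mean level of the 7 ran from 6.90 to 7.24 in Con and from 6.31 to 6.59 in HKO. Of 8 macrophage markers, 1 passed (Itgax, -1.02), as 0.203% of all genes did. The mean of Itgax over 6 arrays, 3.93, lay just below the median over genes, with 4.44 in Con and 3.42 in HKO. Itgax is not shown to be above background in HKO, so no size is read from its difference. Of the 8, 3 had HKO values below all Con values (10.1% of all genes), and Clec4f (0.20) had them above (8.05%). The mean level of the 8 ran from 5.93 to 6.19 in Con and from 5.48 to 5.69 in HKO. Of 5 endothelial markers 0 passed. At an unadjusted p under 0.05, 2 were lower (6.56% of all genes were), Pecam1 at -0.29 and Lyve1 at -0.57. Of the 5, 1, Pecam1, had HKO values below all Con values. Clec4g stood at 0.14, Kdr at 0.07 and Stab2 at -0.05. Of 5 lymphocyte markers 0 passed and 0 had an unadjusted p under 0.05. The part of these cells in the values of mitochondrial genes was not tested.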

How the data were processed

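The deposited values are log2 signals of probe sets that the authors computed by RMA (R 3.3.0, as the submitters' processing notes state). RMA equalises the arrays' distributions and compresses changes of dim genes. Labelled cDNA came from 400 ng of total RNA per the labels' protocols. Arrays have no read depth, and their number limits the precision. Of 41345 probe sets, 23521 had 1 gene in the platform annotation. A gene with several was read from the one whose mean over 6 arrays was highest. HKO was compared with Con in limma 3.58.1 under R 4.3.3 (lmFit, eBayes, two-sided, no term beside the group); p-values were adjusted by Benjamini and Hochberg's method over 22180 genes, with a threshold of 0.05. SEs are limma's moderated ones, and intervals are 95%. Members, lists and the rule for named genes (per complex the lowest p and the extreme levels, isoform families, and up to 2 genes per further list) were chosen with earlier results of these data known; other genes were named after their values were seen. Steps were tested on simulated data. Figures were drawn with matplotlib 3.10.9. Alternatives covered normalization, low-value filters, probe sets, variance models, weights, the replicate block and each array left out.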

Additional observations from a re-analysis of the deposited data

How the results depend on the processing

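The number of members past adjusted p 0.05 was 0 under every alternative run. The count over all genes was 45. It was 4 (without Con2) to 32 (without Con3) with 1 array left out, 138 among genes at or above the median level, 242 among genes with a mean of at least 5, 215 with a variance trend and 0 with no shared variance (2422 at an unadjusted p under 0.05 in limma's unmoderated fit). With the replicate block it was 3, and 1 member was lower at an unadjusted p under 0.05; same-numbered arrays deviated together with correlations of 0.02 to 0.03, so the numbers were not taken as pairs. Members higher at an unadjusted p under 0.05 numbered 2 after a second quantile normalization, 0 among genes at or above the median level, 4 with a variance trend, 3 with no shared variance, 2 with array weights and 1 to 2 with 1 array left out. Those lower numbered 1 after the second normalization, with centred arrays and with averaged probe sets, and 1 to 3 with 1 array left out. Members without overlap then numbered 7 to 11 higher and 9 to 17 lower, since fewer arrays overlap less. With 1 array left out the medians ran from -0.050 to -0.0010 in complex I, -0.144 to -0.0352 in II, -0.0386 to 0.0539 in III, -0.0338 to 0.0413 in IV and -0.0529 to 0.0307 in V. The list medians ran from -0.0661 to -0.0147 (assembly), -0.0790 to -0.0336 (citrate cycle), -0.107 to -0.0442 (content), -0.214 to -0.0907 (Cycs, Cyc1 and Atpif1) and -0.0589 to 0.0276 (regulators). After the second normalization the assembly median was 0.00161 and the regulator median 0.00920; the latter was 0.00711 among genes with a mean of at least 5. The cause was not tested. Of 746 values for 48 named genes under alternatives, 18 had the opposite sign, all of genes that did not pass. Another 5 lost a call, all of them for Snai2, and 3 gained one, of Tfb1m and Slc25a4. Cox8a stood at -0.00047 after the second normalization. With 1 array left out, Cox8a ran from -0.0127 to 0.0661, Cox6a1 from -0.0175 to 0.0529, Cox6a2 from -0.0327 to 0.144, Cox6b1 from -0.0570 to 0.00992, Cox7a1 from -0.0780 to 0.0435, Cox7a2l from -0.0108 to 0.113, Cox7b from -0.0888 to 0.0464, Cox8c from -0.138 to 0.0457, Ndufs5 from -0.0661 to 0.416, Uqcrq from -0.309 to 0.0544 and Atp5j2 from -0.172 to 0.203.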
